A study of Mus musculus with 2 samples.

Results

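The 10 genes described here code for core proteins of extracellular proteoglycans and for proteins that make or bind hyaluronan. Dcn, Lum, Bgn, Ogn, Fmod and Prelp code for small leucine-rich core proteins, Vcan for a large hyaluronan-binding core protein, Hapln1 for a link protein, and Has1 and Has2 for hyaluronan synthases. The genes were listed by name as a group of related function, with earlier results of these data known, and all 10 were present among the 17809 genes of the wild-type table and among the 15972 genes of the reporter table. The tables had 14351 genes in common.

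RNA was measured in single cells of the mouse colon in 2 libraries. The wild-type library came from C57BL/6 mice, whose epithelial and mesenchymal cells were sorted by EpCAM and CD45 and mixed 1:1 before loading with the V3 kit. The reporter library held mesenchymal cells sorted for GFP from Pdgfra-H2B-eGFP mice, in which the Pdgfra locus drives a nuclear GFP, and was made with the V2 kit, so that strain, gate and kit cannot be told apart between libraries. Each library pooled 3 female mice of 8 to 12 weeks, and no map led from cells to mice. Without a replicate no test across mice could be made, and all values are descriptions of 1 library each.

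The values were UMI counts corrected for depth by the authors, with a median total of 8972 per cell over 7495 wild-type cells (range 6120 to 16389) and of 3150 over 4409 reporter cells (range 2314 to 4432). The median cell had 2804 genes above 0 in the wild-type library, against 1381 among reporter cells, and 1 cell barcode occurred in both libraries. Levels were therefore compared between classes of the same library and never as a fold across libraries. A level is the corrected count averaged over the cells of a class, and a ratio is the log2 of the ratio of class means with a pseudocount of 0.01, given as past 2-fold only where a class mean reached 0.05.

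Cell classes were rebuilt by clustering and named here from markers, so each name but epithelial carries the ending -like. CTFs are crypt top fibroblasts and CBFs crypt bottom fibroblasts, the latter in 2 types. The wild-type library gave 816 CTFs-like, 1139 CBFs1-like, 505 CBFs2-like, 949 smooth muscle-like, 119 pericyte-like, 595 blood endothelial-like, 42 lymphatic endothelial-like, 78 glia-like and 2480 epithelial cells, with median genes per cell of 2433, 2682, 2800, 2622, 2102, 2049, 2075, 2323 and 3221.5. The reporter library gave 757 CTFs-like, 987 CBFs1-like, 851 CBFs2-like, 526 inflammatory fibroblast-like and 1121 activated fibroblast-like cells, with medians of 1597, 1386, 1173, 1863 and 1244 genes, and 53 epithelial cells with 1569. Several classes joined clusters: 519 and 238 cells made up the CTFs-like cells of the reporter library, 888 and 61 the smooth muscle-like cells, and 497 and 98 the blood endothelial-like cells.

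Values above 0 were not read as expression where cells were shallow. Among 318 blood endothelial-like cells with 1800 to 2200 genes, Dcn was above 0 in 97.2% and the epithelial gene Epcam also in 97.2%, against 36.4% and 34.3% of the 143 cells with 2200 to 3000 genes. Means, and shares of the less abundant genes beside their share in epithelial cells, were used instead. Intervals beside shares are exact Clopper-Pearson 95% intervals and cover counting error only. For a count of 0 the limit given is 3 cells of the total, and it bounds cells with a count, not cells that express the gene.

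Small leucine-rich proteoglycans bind collagen fibrils and set their diameter and spacing, and their chains are chondroitin, dermatan or keratan sulphate. Hyaluronan is an unsulphated polymer extruded at the plasma membrane by the Has enzymes, and versican together with link protein holds it in large aggregates in the matrix around stromal and smooth muscle cells.

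**Figure D1:**
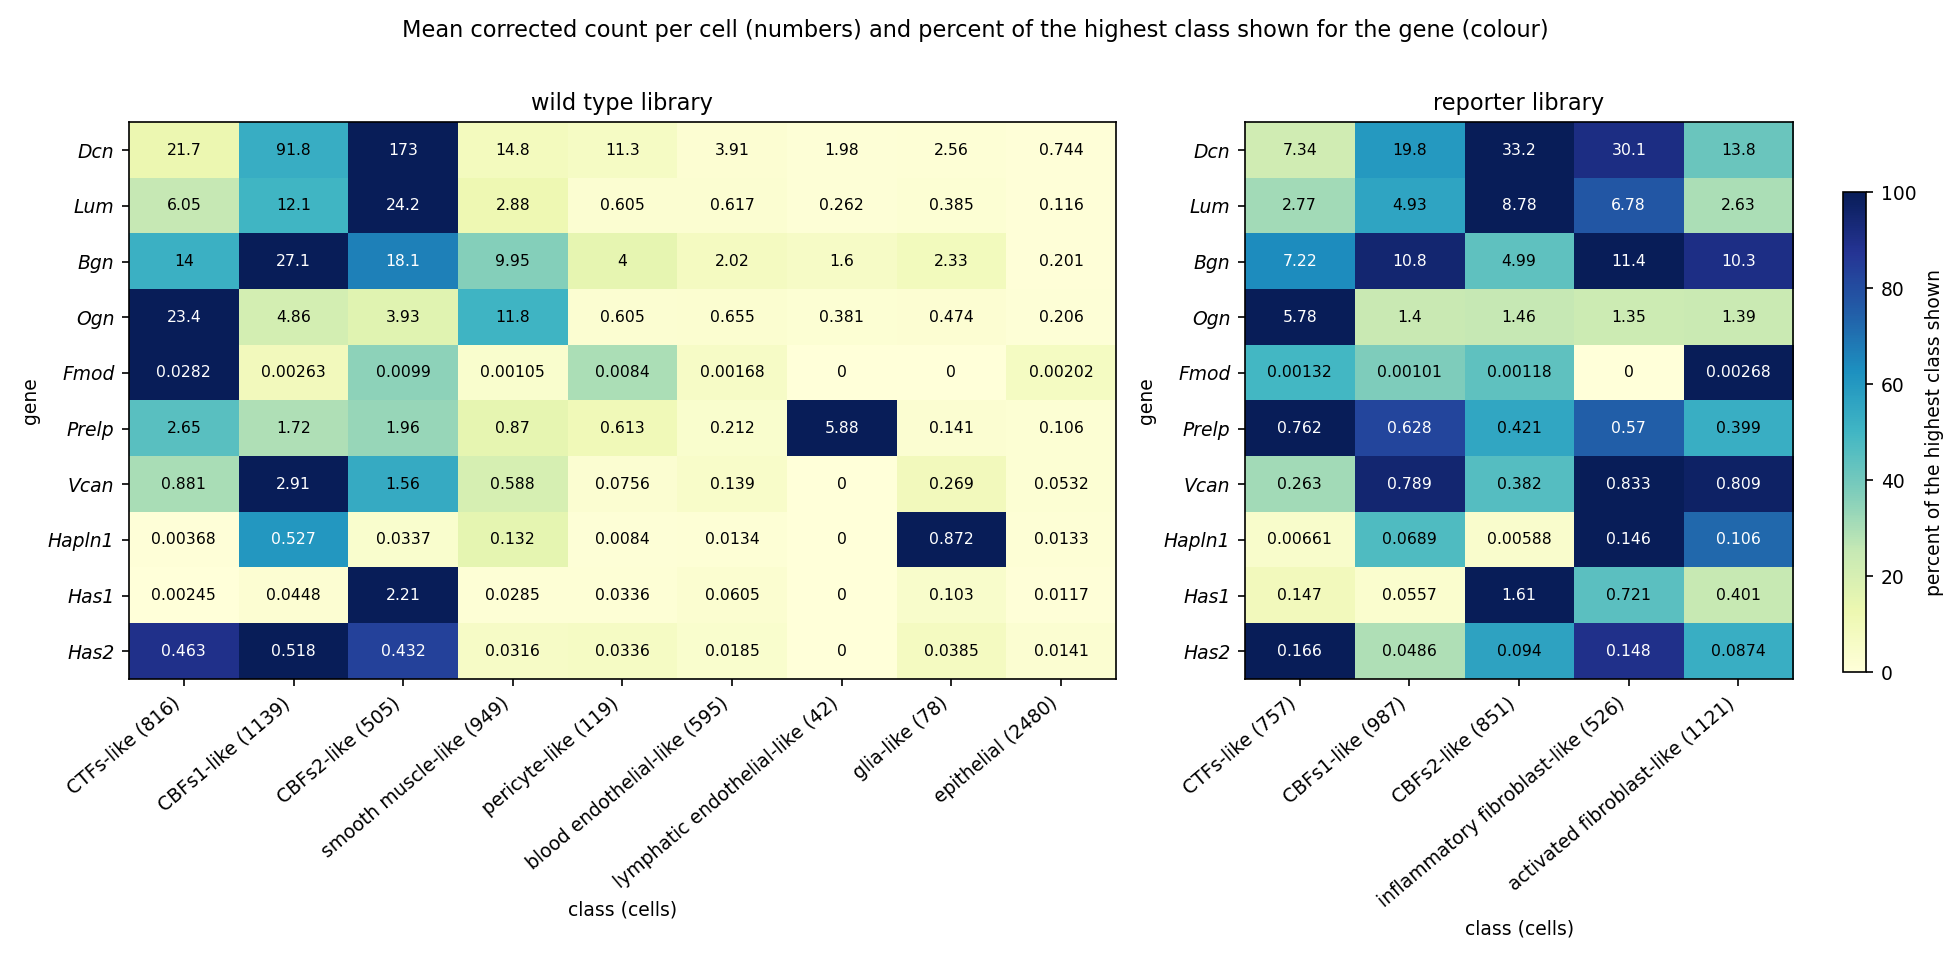
Mean corrected count per cell (numbers) of the 10 genes by cell class in the wild-type and the reporter library, with colour as percent of the highest class shown for that gene and cells per class in brackets. Dcn and Lum peak in CBFs2-like cells of both libraries (173 and 24.2 in the wild type), Ogn in CTFs-like cells (23.4), and Prelp in lymphatic endothelial-like cells (5.88).

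Decorin, the product of Dcn (GRCm38 chromosome 10, 97479609 to 97518143), is the main chondroitin or dermatan sulphate proteoglycan on interstitial collagen fibrils. In the wild-type library its level was 173 in CBFs2-like, 91.8 in CBFs1-like and 21.7 in CTFs-like cells, and 14.8 in smooth muscle-like and 11.3 in pericyte-like cells. The 3 fibroblast types had the same order in the reporter library, with 33.2, 19.8 and 7.34. Dcn was thus lower in CTFs-like than in CBFs-like cells, by a log2 ratio of -2.43 (wild type) and -1.82 (reporter), while CBFs2-like over CBFs1-like gave 0.91 and 0.75, short of 2-fold in both.

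Lumican, a keratan sulphate proteoglycan that regulates fibril spacing, is coded by Lum, the next gene on the same chromosome (97565128 to 97572703). It followed Dcn in order: 24.2 in CBFs2-like, 12.1 in CBFs1-like and 6.05 in CTFs-like wild-type cells, and 8.78, 4.93 and 2.77 in the reporter library. Outside fibroblasts Lum reached 2.88 in smooth muscle-like cells and 0.605 in pericyte-like cells. CTFs-like over CBFs-like gave -1.38 and -1.27. CBFs2-like over CBFs1-like gave 1.00 in the wild-type library, at the edge of the 2-fold threshold, and 0.83 in the reporter library. The wild-type ratio was past 2-fold in 10 of 17 alternatives. Those 10 include the alternatives that changed only the filter or the fold threshold, which leave a ratio as it is.

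Biglycan, from Bgn on the X chromosome (73483602 to 73495933), is the close relative of decorin. Its levels were flatter across fibroblasts than those of Dcn: 27.1 in CBFs1-like, 18.1 in CBFs2-like and 14 in CTFs-like wild-type cells, with 9.95 in smooth muscle-like cells and 4 in pericyte-like cells. The wild-type ratios stayed within 2-fold, at -0.80 for CTFs-like over CBFs-like and -0.59 for CBFs2-like over CBFs1-like cells. In the reporter library CTFs-like over CBFs-like cells gave -0.17, and Bgn was lower in CBFs2-like than in CBFs1-like cells (4.99 against 10.8, log2 ratio -1.12). Dcn and Bgn therefore ran opposite ways between the CBFs types in both libraries, as Dcn was higher and Bgn lower in CBFs2-like cells.

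Osteoglycin (mimecan), from Ogn on chromosome 13 (49608046 to 49624501), is a small leucine-rich protein that binds collagen fibrils. Ogn set CTFs-like cells apart, with 23.4 against 4.86 in CBFs1-like and 3.93 in CBFs2-like wild-type cells, and 5.78 against 1.40 and 1.46 in the reporter library. Its log2 ratio between CTFs-like and CBFs-like cells was 2.35 (wild type) and 2.01 (reporter), and Ogn was the only one of the 10 genes past 2-fold upward in both. Smooth muscle-like cells held 11.8, which was 109% of the mean over the 2460 CTFs-like and CBFs-like wild-type cells, while pericyte-like cells held 0.605 and blood endothelial-like cells 0.655. By share of cells with at least 5 counts, Ogn was in 79.0% (95% interval 76.1 to 81.8%) of CTFs-like and 78.1% (75.3 to 80.7%) of smooth muscle-like cells, against 1.49% of epithelial cells.

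The reference promoter of Ogn (RefSeq on GRCm38.p6, chr13:49607795-49607994, plus strand, written 5′ to 3′) is 200 bases long and ends 20 bases before the RefSeq start; it is shown because Ogn and Has1 had the largest upward ratios of class means among the 10 genes between fibroblast types.

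Ogn: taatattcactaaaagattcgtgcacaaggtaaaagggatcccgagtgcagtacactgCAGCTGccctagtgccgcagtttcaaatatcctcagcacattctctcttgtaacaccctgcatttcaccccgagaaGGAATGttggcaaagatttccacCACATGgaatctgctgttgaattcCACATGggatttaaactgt

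Capitals mark matches, searched on both strands, to short motifs. The Ogn window held 3 matches to the E-box CANNTG, present in 58.6% of the 32851 promoter windows of that length, and 1 to the TEAD motif GGAATG, present in 10.3%. Of the 7 members with a promoter in the reference (Dcn, Lum and Has2 had none), the TEAD motif matched only in Ogn; a match describes the sequence and is neither a site shown to be bound nor a cause.

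Prelp (chromosome 1, 133910304 to 133921414) codes for a leucine-rich protein that anchors basement membranes to the underlying collagen through its heparin-binding end. The 3 fibroblast types lay within 2-fold of each other, with 2.65 in CTFs-like, 1.72 in CBFs1-like and 1.96 in CBFs2-like wild-type cells and 0.762, 0.628 and 0.421 in the reporter library. The wild-type class with the highest level was the lymphatic endothelium, with 5.88, where Prelp was above 0 in 95.2% of 42 cells (83.8 to 99.4%), against 8.55% (7.48 to 9.72%) of epithelial cells. It was above 0 in 26.9% (19.2 to 35.8%) of pericyte-like cells.

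Blood endothelial-like cells had Prelp above 0 in 11.6% (9.14 to 14.4%). Among cells with 2200 to 3000 genes, the share was 23.8% (17.1 to 31.6%) against 2.84% (1.69 to 4.46%) of epithelial cells. The same 143 blood endothelial-like cells had Dcn above 0 in 36.4% and Epcam in 34.3%, so the epithelial share does not measure background in this class. Whether the Prelp counts come from RNA of other cells was not tested. The cluster of 98 cells led by Selp, Madcam1, Lrg1 and Ackr1, genes of venous endothelium, had Prelp in 44.9% (34.8 to 55.3%) of cells with a mean of 0.745. The cluster of 497 cells had it in 5.03% (3.28 to 7.34%), with a mean of 0.107. Bgn was likewise higher in the smaller cluster, 3.84 against 1.66.

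Fibromodulin, from Fmod on the same chromosome (134037254 to 134048277), is a keratan sulphate proteoglycan of tendon and cartilage. It was the gene of the 10 with too few counts for a ratio in any comparison, with its highest share, 14 of 816 cells or 1.72% (0.941 to 2.86%), in wild-type CTFs-like cells, and 0 of 526 inflammatory fibroblast-like cells, which allows up to 0.57% of cells with a count. At a finer resolution the wild-type CTFs-like cells contained a cluster of 221 cells with a mean of 0.0724, against 0.00347 in the cluster of 576 cells.

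Versican, the large chondroitin sulphate core protein that binds hyaluronan, is coded by Vcan (chromosome 13, 89655312 to 89742509). Its wild-type level was 2.91 in CBFs1-like, 1.56 in CBFs2-like and 0.881 in CTFs-like cells, with shares above 0 of 83.8% (81.5 to 85.9%), 64.2% (59.8 to 68.3%) and 41.3% (37.9 to 44.8%). Vcan led in CBFs1-like among these types in the reporter library too, with 0.789 against 0.382 and 0.263, and was as high in activated (0.809) and inflammatory (0.833) fibroblast-like cells. CTFs-like over CBFs-like cells gave log2 ratios of -1.49 and -1.16, and CBFs2-like over CBFs1-like cells -0.90 and -1.03. The Vcan shares depended on depth, in which the wild-type classes differ. Among CTFs-like cells the share was 14.8% of 54 cells below 1800 genes and 70.4% of 179 cells with 3000 or more. Below 1800 genes it was 57.1% of 28 CBFs1-like cells. Smooth muscle-like cells had Vcan in 33.3% (30.3 to 36.4%) and glia-like cells in 15.4% (8.21 to 25.3%), against 3.59% (2.89 to 4.40%) of epithelial cells. None of 42 lymphatic endothelial-like cells had a count of Vcan, Hapln1, Has1 or Has2, which allows up to 7.14% of cells with a count for each.

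Hapln1, which codes for the link protein that locks hyalectans such as versican onto hyaluronan, lies next to Vcan (89539796 to 89611652). Among the 3 wild-type fibroblast types it was highest in CBFs1-like cells: it was above 0 in 24.8% (22.4 to 27.5%) of them, in 2.97% (1.67 to 4.85%) of CBFs2-like and in 3 of 816, or 0.368% (0.0759 to 1.07%), of CTFs-like cells, against 1.21% (0.818 to 1.72%) of epithelial cells. The CTFs-like share thus did not exceed the epithelial share. In the reporter library the shares were 5.47% (4.14 to 7.08%), 0.47% (0.128 to 1.2%) and 0.661% (0.215 to 1.53%), beside 1 of 53 epithelial cells or 1.89% (0.0478 to 10.1%), an interval that holds the CBFs1-like share. The log2 ratio of CBFs2-like over CBFs1-like was -3.62 (wild type) and -2.31 (reporter). The wild-type class with the highest level was the glia, with 0.872 and 37.2% (26.5 to 48.9%) of cells, and smooth muscle-like cells had it in 10.6% (8.75 to 12.8%). Inflammatory and activated fibroblast-like cells had Hapln1 in 11.4% (8.82 to 14.4%) and 7.40% (5.94 to 9.1%), beside 5.47% of the CBFs1-like cells of the same library. The activated interval overlaps that of the CBFs1-like cells, and the epithelial interval holds the activated share too. Median genes per cell were 1863 in inflammatory, 1244 in activated fibroblast-like and 1386 in CBFs1-like cells.

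**Figure D2:**
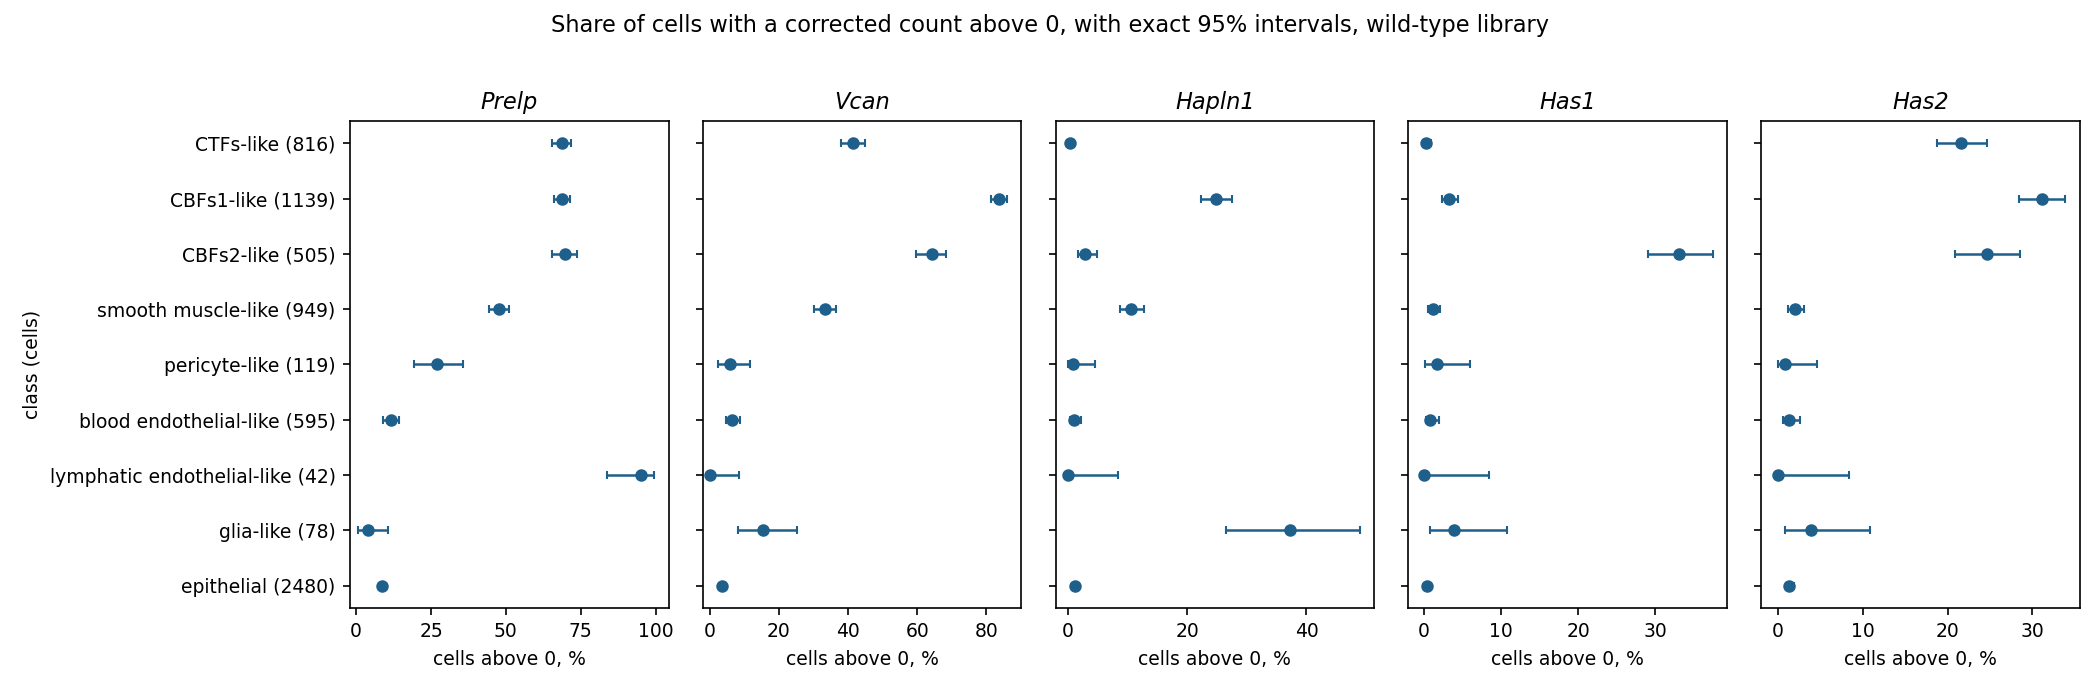
Share of wild-type cells with a corrected count above 0 (x axis, percent) by cell class for Prelp, Vcan, Hapln1, Has1 and Has2, with bars for exact 95% intervals and cells per class in brackets. Has1 stands out in CBFs2-like cells (33.1%), Hapln1 in CBFs1-like (24.8%) and glia-like cells (37.2%), and Prelp in lymphatic endothelial-like cells (95.2%).

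Has1 (chromosome 17, 17843323 to 17855205) codes for a hyaluronan synthase of the plasma membrane. By class means it had the largest ratio between CBFs types of the 9 genes tested in each library, with 2.21 in CBFs2-like against 0.0448 in CBFs1-like wild-type cells and 1.61 against 0.0557 in the reporter library, log2 ratios of 5.34 and 4.62. As the difference of mean natural log values, converted to log2, these were 0.71 and 0.84, within 2-fold. Neither was then the largest of the 10 genes (Lum 1.11 in the wild type, Bgn -1.11 in the reporter). As 1 is added to each count before the log, that measure shrinks the ratios of genes with few counts. By it 25 genes were past 2-fold upward and 28 downward of 10126 in the wild type (669 and 385 by class means). In the reporter library 20 and 17 of 6729 were (471 and 410). Has1 was above 0 in 33.1% (29.0 to 37.4%) of wild-type CBFs2-like cells and 45.8% (42.4 to 49.2%) of those of the reporter library. The shares in wild-type CBFs1-like and smooth muscle-like cells were 3.25% (2.30 to 4.45%) and 1.16% (0.58 to 2.06%), against 0.444% (0.222 to 0.792%) in epithelial cells.

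Wild-type CTFs-like cells had Has1 in 2 of 816 cells, 0.245% (0.0297 to 0.883%), which did not exceed the wild-type epithelial share. The reporter CTFs-like cells had it in 5.94% (4.37 to 7.87%), inside the interval of the few epithelial cells of that library (3.77%, 0.46 to 13%). Those 53 epithelial cells had at least 5 counts of Dcn in 26.4% and of Bgn in 30.2%, so their shares may not measure background for any gene here. Within the reporter CTFs-like cells, the cluster of 238 cells had a mean of 0.374 and the cluster of 519 cells a mean of 0.0424. At a resolution of 0.8 the smaller cluster kept the CTFs-like name with 124 cells and a Has1 mean of 0.0403, so the higher value depended on the clustering. The summed level of 10 immediate early and heat shock genes that dissociation can induce was 131 in CBFs2-like against 75.4 in CBFs1-like wild-type cells and 58.4 against 28.6 in the reporter library, and its part in the Has1 levels was not tested. Has1 was also above 0 in 27.9% (24.1 to 32%) of inflammatory and 18.9% (16.7 to 21.3%) of activated fibroblast-like cells.

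The reference promoter of Has1 (RefSeq on GRCm38.p6, chr17:17855209-17855408, minus strand, written 5′ to 3′) is likewise 200 bases long and ends 20 bases before the RefSeq start.

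Has1: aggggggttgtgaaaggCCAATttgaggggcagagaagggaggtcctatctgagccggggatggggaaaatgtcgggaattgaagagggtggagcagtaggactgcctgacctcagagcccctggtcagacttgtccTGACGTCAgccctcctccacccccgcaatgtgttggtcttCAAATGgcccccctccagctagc

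Capitals mark a CCAAT box (CCAAT, in 29.4% of all windows), a cAMP response element (TGACGTCA, in 1.25%) and an E-box. TGACGTCA matched in no other of the 7 members' promoters. Vcan's window held a CCAAT box, a GC box (GGGCGG, in 28.7%) and an E-box, Bgn's a GC box and an E-box, and Fmod's an E-box, while the motifs searched had no match in the windows of Prelp and Hapln1.

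Has2 (chromosome 15, 56665627 to 56694539) codes for the synthase needed for hyaluronan in the developing heart. Unlike Has1 it was found in all 3 wild-type fibroblast types: 21.6% (18.8 to 24.6%) of CTFs-like, 31.1% (28.4 to 33.9%) of CBFs1-like and 24.6% (20.9 to 28.5%) of CBFs2-like cells, with means of 0.463, 0.518 and 0.432. Smooth muscle-like cells had it in 2.00% (1.21 to 3.11%) and epithelial cells in 1.33% (0.918 to 1.86%), and among cells with 3000 genes or more the shares were 6.77% (3.99 to 10.6%) and 1.64% (1.11 to 2.34%). In cells with 2200 to 3000 genes they were 0.21% (1 of 477 cells) and 0.474% (3 of 633 cells), so the shares differed that way in the deepest cells and not in these. The reporter library had Has2 in 11.9% (9.67 to 14.4%) of CTFs-like, 4.26% (3.08 to 5.71%) of CBFs1-like, 7.05% of CBFs2-like and 11.4% of inflammatory fibroblast-like cells, beside 3.77% (0.46 to 13%) of its 53 epithelial cells. CTFs-like over CBFs-like gave 1.15 there and -0.08 in the wild type. The reporter value rested on the larger CTFs-like cluster: it was 1.56 with that cluster alone and -0.74 with the smaller cluster alone, settings added after the data were seen.

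How crypt top differ from crypt bottom fibroblasts was measured as CTFs-like over CBFs-like cells. In the wild-type library 1 of the 9 members tested was past 2-fold upward (5.41% of the 10041 genes tested were) and 5 were downward (7.76% of genes). The members' median log2 ratio was -1.38, and that of all genes -0.07. The gene past 2-fold upward was Ogn, and those downward were Dcn, Lum, Vcan, Hapln1 and Has1, the last pair with counts in 3 and 2 CTFs-like cells. That pair passed the filter through the CBFs-like cells alone and could not have been counted as upward, and the count and median include it.

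In the reporter library 2 of 8 members were past 2-fold upward (9.26% of 7376 genes) and 4 downward (3.90% of genes), with medians of -0.67 for members and 0.33 for all genes. Ogn and Has2 were higher, and Dcn, Lum, Vcan and Has1 lower, in CTFs-like cells. Ogn, Dcn, Lum, Vcan and Has1 thus passed 2-fold the same way in both libraries, which are separate pools of mice. Of these, Ogn, Dcn and Lum were also past 2-fold in both libraries by the difference of mean natural log values, which gave -0.26 and -0.35 for Has1.

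**Figure D3:**
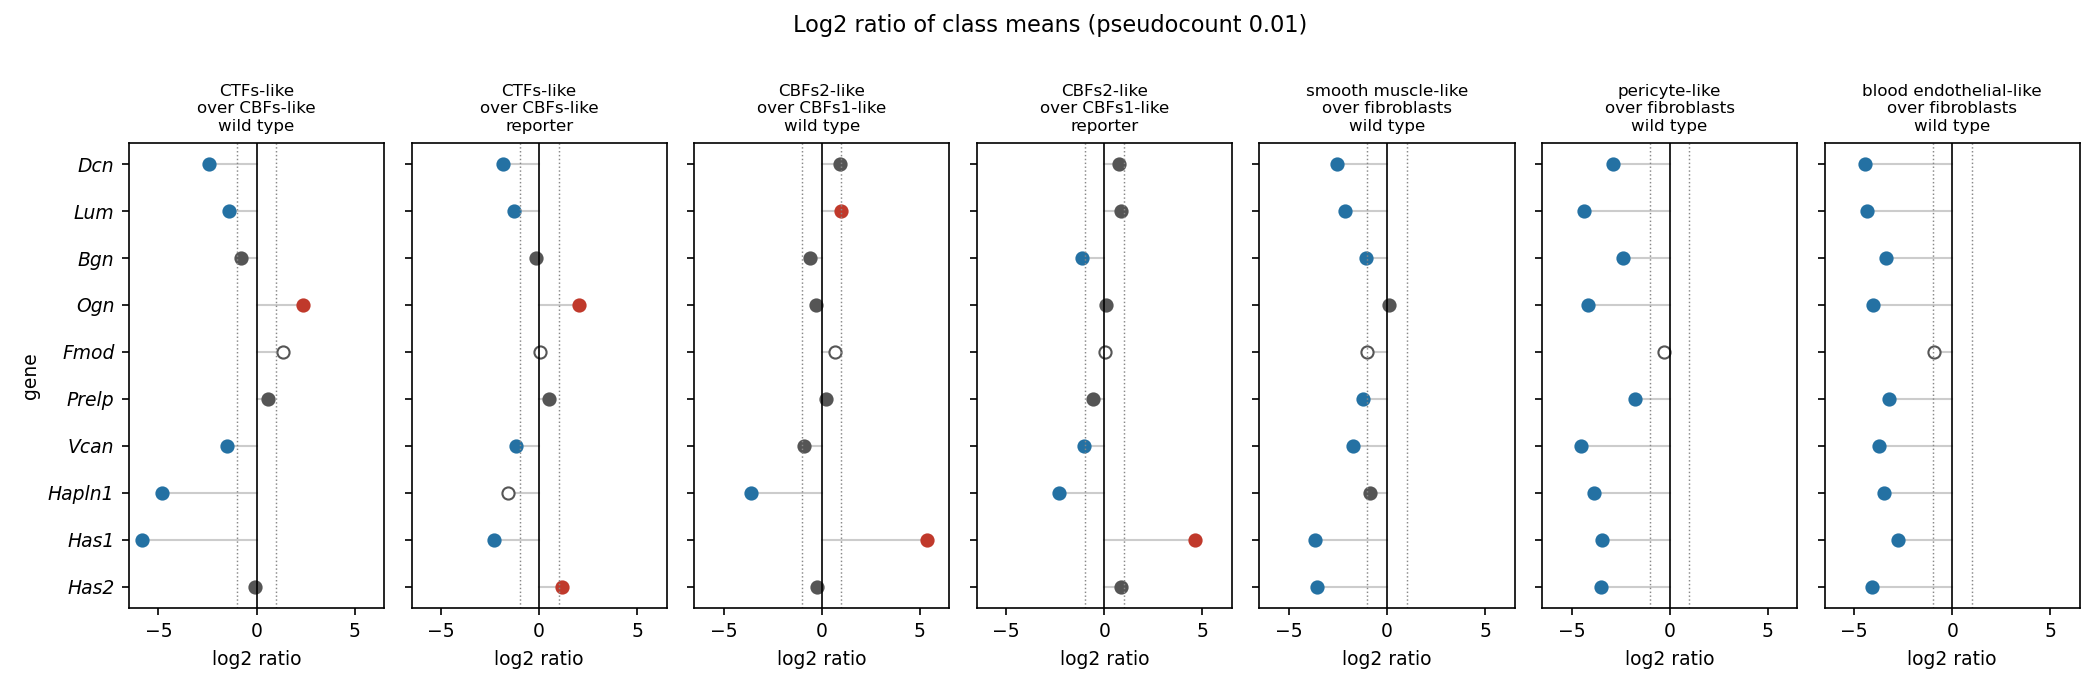
Log2 ratio of class means (x axis) for the 10 genes in 7 comparisons, with red and blue points past 2-fold upward and downward, grey points within 2-fold, open points below the filter and dotted lines at 2-fold. Has1 reaches 5.34 and 4.62 in CBFs2-like over CBFs1-like cells, and no point lies past 2-fold to the right in the 3 comparisons with fibroblasts.

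How the CBFs types differ was measured as CBFs2-like over CBFs1-like cells. In the wild-type library 2 of 9 members, Has1 and Lum, were past 2-fold upward (6.61% of 10126 genes) and 1, Hapln1, downward (3.80% of genes). The members' median was -0.26 and that of all genes 0.08. In the reporter library 1 of 9 members, Has1, was upward (7% of 6729 genes) and 3, Bgn, Vcan and Hapln1, downward (6.09% of genes), with medians of 0.06 and -0.19. Fmod fell below the filter in all 7 comparisons and Hapln1 in that of CTFs-like with CBFs-like reporter cells. Has1 and Hapln1 were the members past 2-fold the same way in both libraries by class means. Hapln1 passed the filter through CBFs1-like cells alone in both libraries, and Has1 through CBFs2-like cells alone in the wild type. Each could there be counted in that direction only. As differences of mean natural log values both lay within 2-fold, Hapln1 at -0.34 and -0.06 and Has1 at 0.71 and 0.84. That measure shrinks the ratios of genes with few counts, so these values are not folds of class means. Prelp gave 0.19 and -0.57, Ogn -0.30 and 0.06, and Has2 -0.26 and 0.83, so these 3 genes differed in sign between libraries within 2-fold.

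CTFs-like cells were not uniform. The 2 clusters of the reporter library, of 519 cells (led by Bmp3, Tagln, Wif1 and Sox6) and 238 cells (led by Ptprr, Nrg1, Cox4i2 and Plau), differed in Ogn (7.38 against 2.30), Has2 (0.225 against 0.0378) and Lum (3.34 against 1.53). In the wild-type library a finer resolution of 0.8 split off 576 cells (led by genes such as Fam180a, Sox6 and Wif1, median 2256.5 genes) and 221 cells (led by genes such as Lpar3, Dmp1 and Nrg1, median 2915 genes). Ogn was 30.1 against 6.79, Has2 0.608 against 0.127, Lum 7.67 against 2.00, and Vcan, in the other direction, 0.644 against 1.52. Vcan was also higher in the smaller reporter cluster, 0.483 against 0.162. Dcn alone of the 7 genes plotted ran opposite ways, 26.4 against 10.2 in the wild-type and 4.70 against 13.1 in the reporter library. The reporter clusters were made at a resolution of 0.3, and at 0.8 they held 520 and 124 cells. There Dcn was 4.74 against 7.02, Lum 3.34 against 0.532, Ogn 7.38 against 3.44 and Prelp 0.912 against 0.177, in the same directions but with other sizes. The leading genes of clusters were chosen after their values were seen.

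**Figure D4:**
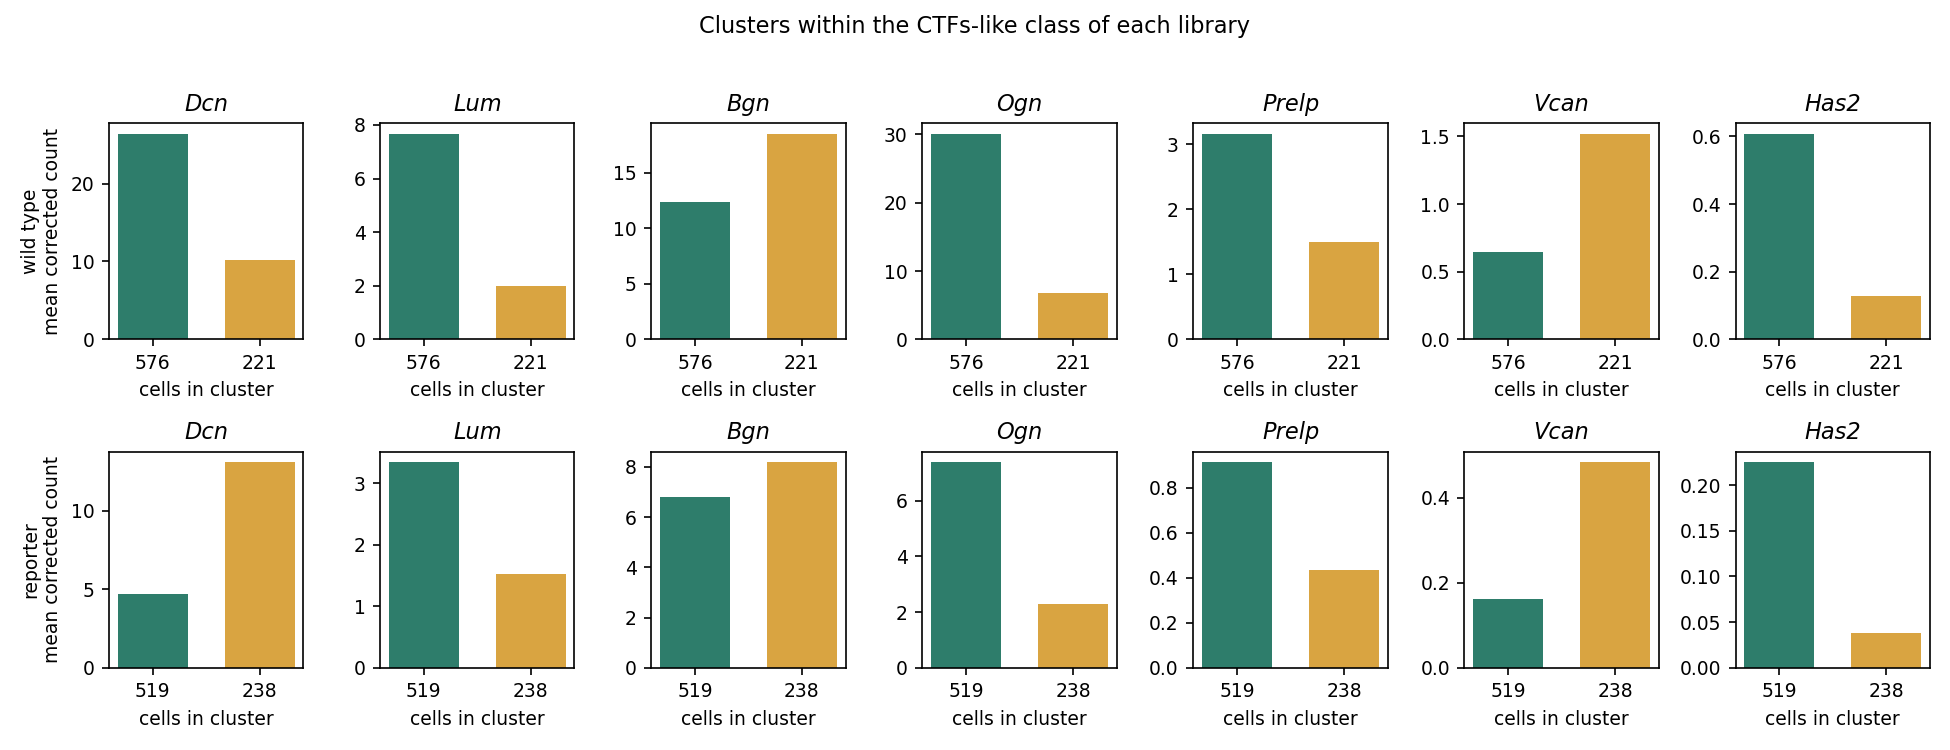
Mean corrected count per cell (y axis, from 0) of 7 genes in the larger (green) and smaller (yellow) cluster of CTFs-like cells in the wild-type (top, resolution 0.8) and reporter (bottom, resolution 0.3) library, with cells per cluster on the x axis. Ogn is higher in the larger cluster of both libraries (30.1 against 6.79 and 7.38 against 2.30), and Dcn differs in direction between them.

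CBFs types were also mixed at that resolution. Of the wild-type CBFs1-like cells, a cluster of 806 had Hapln1 at 0.701 and a cluster of 333 at 0.105, and Prelp ran the other way, 1.39 against 2.52. Of the CBFs2-like cells, 473 had Has1 at 2.36, while the mean was 0 in the remaining cluster of 32 cells.

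Other stromal classes were compared with the 2460 CTFs-like and CBFs-like cells of the wild type, called fibroblasts here, without the 130 fibroblasts of unnamed type. In smooth muscle-like cells 0 of 9 members were past 2-fold upward (6.16% of 10047 genes) and 7 were downward (10.3% of genes), with medians of -1.72 for members and -0.07 for all genes. Ogn (0.12) and Hapln1 (-0.89) were the members within 2-fold, and Bgn (-1.07) lay just past it. In pericyte-like cells 0 of 9 were upward (10.7% of 10299 genes) and 9 downward (20.7% of genes), with medians of -3.50 and -0.24. In blood endothelial-like cells 0 of 9 were upward (12.3% of 10334 genes) and 9 downward (19.3% of genes), with medians of -3.72 and -0.20. Has1 and Has2 in smooth muscle-like cells (0.0285 and 0.0316) and Hapln1 and Has2 in blood endothelial-like cells (0.0134 and 0.0185) lay below the filter of 0.05. These genes passed it through the fibroblasts alone and could not have been counted as upward. The counts and medians include them. Bgn and Prelp had the smallest pericyte ratios, -2.38 and -1.74.

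Pericyte-like cells had Hapln1 in 1, Has1 in 2 and Has2 in 1 of 119 cells, so no fold is read for these genes there; they are 3 of the 9 counted as downward, and the median of -3.50 is the ratio of Has2. Dcn gave log2 ratios of -2.53 (smooth muscle-like), -2.91 (pericyte-like) and -4.44 (blood endothelial-like cells). The blood endothelial mean of 3.91 was carried mostly by 70 of 595 cells with 3000 genes or more, which had a mean of 19.2 and a median of 0. The mean was 3.19 in the 64 cells below 1800 genes, 2.08 in the 318 with 1800 to 2200 genes and 0.818 in the 143 with 2200 to 3000. With each cell thinned to a common 2000 counts, the median of all genes moved from -0.24 to 0.02 in the pericyte and from -0.20 to 0.03 in the blood endothelial comparison.

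The levels outside fibroblasts were set beside those of 10 other fibroblast markers, whose most abundant gene was Col3a1 (51.4 in fibroblasts, 26.2 in smooth muscle-like and 13.9 in pericyte-like cells). None of the 10 was at 0 in any of these classes, and their summed level was 131 in fibroblasts, against 53.5 in the smooth muscle, 30 in the pericytes, 7.4 in blood endothelial-like and 1.37 in epithelial cells. As percent of the fibroblast mean, these markers had a median of 32.7% (range 3.85 to 51.1%) in smooth muscle-like cells. There Ogn, at 109%, and Hapln1, at 52.3%, lay above that range, while Dcn (17.3%), Lum (22.9%), Bgn (47.6%), Prelp (41.9%), Vcan (30.0%), Has1 (5.99%) and Has2 (6.56%) lay inside it. In pericyte-like cells the markers had a median of 19.5% (1.94 to 35.3%), and all 9 genes drawn lay inside, from Hapln1 (3.33%) to Prelp (29.6%), with Dcn at 13.3% and Bgn at 19.1%. In blood endothelial-like cells the median was 5.85% (3.28 to 6.90%), with Dcn (4.59%), Lum (4.91%), Ogn (6.05%), Hapln1 (5.33%) and Has2 (3.83%) inside, and Bgn (9.66%), Prelp (10.2%), Vcan (7.12%) and Has1 (12.7%) above. Epithelial cells also had Prelp (5.09%), Hapln1 (5.28%), Has2 (2.93%), Vcan (2.72%), Has1 (2.46%) and Ogn (1.91%) above their range of 0.934 to 1.56%, so lying above a low range is not read as expression. Prelp in lymphatic endothelial-like cells, at 283%, and Hapln1 in glia-like cells, at 346%, exceeded the ranges of 0.715 to 5.59% and 0.291 to 50%, and Bgn in lymphatic endothelial-like cells, at 7.64%, lay just above the former. Whether values inside a range come from fibroblast RNA was not tested.

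**Figure D5:**
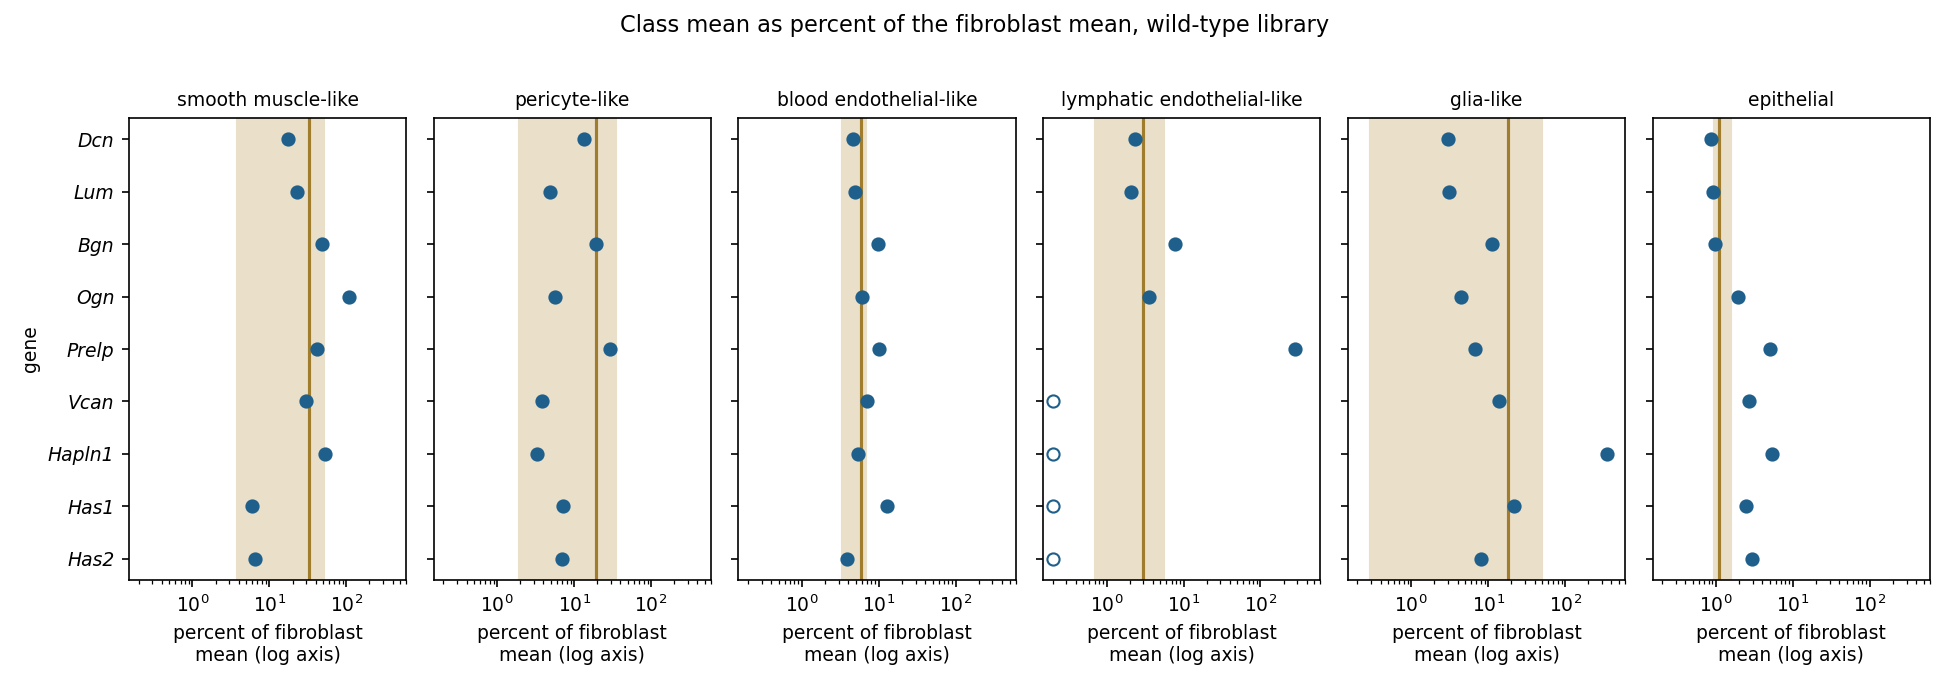
Mean of each gene in a wild-type class as percent of its mean in fibroblasts (x axis, log scale), with the vertical line and shaded band giving the median and range of 10 fibroblast markers and open points marking a mean of 0. Ogn (109%) exceeds the band in smooth muscle-like, Prelp (283%) in lymphatic endothelial-like and Hapln1 (346%) in glia-like cells, while Fmod is not drawn.

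As a share of all corrected counts, the 10 genes took 2.54% in CBFs2-like, 1.61% in CBFs1-like and 0.818% in CTFs-like wild-type cells. Smooth muscle-like cells spent 0.474%, pericyte-like cells 0.215%, blood endothelial-like cells 0.0941% and epithelial cells 0.0151%. In the reporter library the 3 fibroblast types kept that order, with 1.70%, 1.23% and 0.736%.

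Across single cells of a class, Dcn and Lum were the pair that went together in each CBFs type, with r of 0.55 in CBFs1-like and 0.50 in CBFs2-like wild-type cells and 0.52 and 0.57 in the reporter library. In wild-type CTFs-like cells Ogn correlated with Lum (0.59) and Dcn (0.56), and the finer clusters of that class differed in all 3 genes. In reporter CTFs-like cells Ogn and Dcn were both above 0 in 63.5%, against 63.7% for the product of their shares. For Ogn and Lum these values were 62.2% and 60.5%. Cells of a class share a library and differ in depth, so these r values are descriptions. The synthases Has1 and Has2 were both above 0 in 69 wild-type CBFs2-like cells, 13.7% against 8.12% for the product of their shares, and in 33 of the reporter library, 3.88% against 3.23%.

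Genes most alike to each member were sought by r of log2 class means over 17 classes of both libraries, among 5258 genes. Dcn went with Ccdc80 (0.954), Lum itself (0.952) and Spon2 (0.951), Lum with the matrix gene Dpt (0.967), Spon2 (0.963) and Ccdc80 (0.958), and Bgn with the procollagen enhancer Pcolce (0.954), Spon2 (0.952) and C1ra (0.951). Ogn's nearest genes were Mab21l2 (0.932), Fhl1 (0.909) and the leucine-rich proteoglycan Podn (0.895). Those of Vcan were Gpr153 (0.951), Negr1 (0.931) and Fzd1 (0.925), and those of Prelp were Kdelc2 (0.901), Tfpi (0.880) and Tshz2 (0.874). Has2 went with the gelatinase Mmp2 (0.923), Dnm1 (0.923) and Cdh11 (0.904). Has1 went with Gfpt2 (0.928), whose enzyme opens the pathway to the hyaluronan precursor UDP-N-acetylglucosamine, with C3 (0.867) and with Tnfaip6 (0.827), whose product binds hyaluronan. Hapln1 went with Edil3 (0.910), Zfp536 (0.855) and Adam23 (0.825). Edil3, Adam23, C3, Pcolce and Mmp2 were among the markers used to name classes. For Fmod, with its few counts, the highest r values were 0.735 (Vegfa), 0.731 (Psd3) and 0.730 (Col4a6), and classes share libraries and depth, so no r is a test.

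A list of 115 further genes of proteoglycans and hyaluronan was followed, 103 of them in the wild-type table and 86 in that of the reporter. In CTFs-like over CBFs-like cells, 8 of 72 tested were past 2-fold upward and 21 downward in the wild-type library, and 6 and 10 of 47 in the reporter library, beside 5.41% and 7.76% of all genes in the former and 9.26% and 3.90% in the latter. The list's medians were -0.23 and 0.01, and those of all genes -0.07 and 0.33. Podn, a small leucine-rich proteoglycan, was higher along with Ogn (log2 ratios of 1.09, wild type, and 1.11, reporter), as was the hyaluronan receptor Cd44 (2.28 and 1.43). Lower in CTFs-like cells were glypican Gpc3 (-5.06 and -4.29), the hyaluronan-binding Tnfaip6 (-3.81 and -1.01), the heparan sulphatase Sulf2 (-4.40 and -2.45), and Ugdh (-1.21 and -2.06), which makes the UDP-glucuronate used by Has enzymes.

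Between CBFs types 14 of 72 genes of the list were upward and 8 downward in the wild-type library, and 9 and 5 of 44 in the reporter library, beside 6.61% and 3.80%, and 7% and 6.09%, of all genes. The list's medians were 0.24 and -0.03, and those of all genes 0.08 and -0.19. With Has1, CBFs2-like cells had more Tnfaip6 (log2 ratios of 2.12 and 2.54, wild type before reporter), Ugdh (1.32 and 2.10) and Gpc3 (2.90 and 3.61), and more of the versican-cleaving proteases Adamts5 (2.42 and 3.04) and Adamts1 (2.23 and 2.27). Lower in CBFs2-like cells were the syndecans Sdc3 (-1.97) and Sdc1 (-1.46) and the sulphotransferase Chst15 (-2.06) in the wild type, and Col18a1 (-1.74) and the sulphotransferase Hs3st1 (-1.25) in the reporter, though in the wild type Hs3st1 was 0.491 in CBFs2-like against 0.407 in CBFs1-like cells. The proteoglycan-like gene Ecm2 was higher (1.97 and 1.80), and Ptx3, whose product cross-links hyaluronan, gave 3.96 in the reporter library. As whole sub-lists, precursor and linkage enzymes had 3 of 11 tested higher (median 0.33) in the wild type and 2 of 6 (-0.23) in the reporter, and hyaluronan receptors and binders 2 of 5 (0.20) and 2 of 4 (1.63). Surface and basement membrane proteoglycans, with Gpc3, had 3 higher and 5 lower of 17 (0.18), and 1 and 3 of 10 (-0.46), while proteases that cut hyalectans had 2 of 4 higher (1.42) and 3 of 3 (2.27).

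Over fibroblasts, 6 of 71 genes of the list were upward and 24 downward in smooth muscle-like cells (median -0.55), 14 and 30 of 76 in pericyte-like cells (-0.71), and 11 and 32 of 72 in blood endothelial-like cells (-0.88). Of all genes 6.16% and 10.3%, 10.7% and 20.7%, and 12.3% and 19.3% were past 2-fold in these comparisons, with medians of -0.07, -0.24 and -0.20. Smooth muscle-like cells had more opticin, Optc (0.465 against 0.00691, log2 ratio 4.81), Cspg5 (2.11) and Podn (1.35), and less Gpc6 (-2.87), Sulf1 (-2.81) and Itih5 (-2.79), whose product binds hyaluronan. Pericyte-like cells had more Cspg4 (NG2, log2 ratio 2.95), a surface proteoglycan of pericytes that was not among the naming markers, and more of the heparan sulphate enzyme Ndst3 (4.12) and of Adamts1 (2.51), Adamts4 (2.86) and Adamts9 (3.72). They had less perlecan, Hspg2 (-1.99), and Vcan was lower there too (-4.52). Sulf2 (0.0168 against 1.11 in fibroblasts), Hs3st1 (0.0084 against 0.299) and Sulf1 (0.0336 against 0.466) were also lower in pericyte-like cells, with too few counts there for a fold. Blood endothelial-like cells had more of the endothelial proteoglycan Esm1 (log2 ratio 7.16), the granule proteoglycan Srgn (6.54) and the hyaluronidases Tmem2 (3.08) and Hyal2 (2.40). In the surface and basement membrane sub-list of Esm1 and Srgn 3 were higher and 11 lower of 16 tested (median -1.54), among them Gpc1 (-4.29) and Gpc3 (-4.06), and Aspn (-4.35) and Sulf2 (-3.89) of other sub-lists were lower as well. Has2 was above 0 in 8 of 595 blood endothelial-like cells, 1.34% (0.582 to 2.63%), of which 7 were among the 70 cells with 3000 genes or more. In that stratum the share was 10% (4.12 to 19.5%), against 1.64% (1.11 to 2.34%) of epithelial cells, while it was 0.699% against 0.474% in cells with 2200 to 3000 genes. Genes of other cell types were also higher in those 70 cells than in blood endothelial-like cells with 2200 to 3000 genes. Dcn was 19.2 against 0.818, Lum 2.5 against 0.0699 and Epcam 2.43 against 0.517. The source of the Has2 counts was not tested.

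Several members lie in clusters of related genes. Ogn lies downstream of Omd (15.2 kb away), Aspn (40.5 kb) and Ecm2 (75.3 kb), all on the same strand. Omd had its highest of the wild-type levels named here in CTFs-like cells with Ogn (0.358, against 0.0228 in CBFs1-like cells), whereas Aspn was spread over CTFs-like (7.84), CBFs1-like (5.51), smooth muscle-like (9.42) and pericyte-like cells (5.03), and Ecm2 was highest in CBFs2-like cells (1.53). Prelp lies 2.31 kb from Optc and 116 kb from Fmod. Prelp had its highest wild-type level in lymphatic endothelial-like cells and Optc in smooth muscle-like cells, and Fmod had too few counts to place. Hapln1 and Vcan face each other tail to tail at 43.7 kb and both led in CBFs1-like among the 3 fibroblast types.

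Low counts limit Fmod everywhere and Hapln1, Has1 and Has2 in pericytes and endothelium, and genes near 2-fold (Lum between CBFs types in the wild type, Vcan between them in the reporter library, at 12 of 17 alternatives past 2-fold) depend on the setting. Those 12 include the filter, fold-threshold and mitochondrial settings, which leave the reporter ratio as it is. In the reporter comparison of CTFs-like with CBFs-like cells, the smaller cluster alone gave 0.68 for Ogn, -0.99 for Dcn and -0.31 for Vcan. A pseudocount of 0.1 gave -0.67 in place of -2.31 for Hapln1 between the reporter CBFs types. Ratios of means weigh cells with high counts. The difference of mean natural log values left fewer members, and fewer of all genes, past 2-fold in all 7 comparisons. Each class comes from 1 pool of mice per library, RNA levels say nothing on protein or hyaluronan amounts, and position in the tissue was not measured.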

How the data were processed

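The authors aligned reads to mm10 in Cell Ranger, set limits on cells and genes in Seurat 3.1 under R 3.6.2, and applied SCTransform. The deposited score values are UMI counts corrected to a common depth as whole numbers, and the deposited natural log values are ln of 1 plus these counts. Sums of UMI counts over a class were planned as the measure and were not used, since the values are corrected counts; means of corrected counts were.

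Clusters were made in Seurat 5.3.0 (R 4.3.3) from the log values, on 3000 variable features without the members and listed genes. This left 2949 features for the wild type and 2959 for the reporter. Clustering used 30 principal components and resolutions of 0.45 and 0.3. Thinning of cells to 2000 counts used seed 1. Rules for naming clusters were set after the clusters were seen: at least 3 markers of a list above 2-fold and in 10% of cells, a mean log2 fold of at least 1, a 1.5-fold lead over the next list, at least 8 of 10 fibroblast markers for a wild-type fibroblast, and the 10 leading genes. Scrublet in scanpy 1.11.5 marked 7 (0.0934%) and 5 (0.113%) cells, which were kept, so leaving doublets out was not run as an alternative; leaving out the cells with the highest 5% of scores was added.

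Values came from pandas 2.3.3, scipy 1.17.1 and numpy 2.4.6 under Python 3.11.15, and plots from matplotlib 3.10.9. Gene positions are from GENCODE M21 (GRCm38). A ratio needed a class mean of at least 0.05 and took a pseudocount of 0.01. No paired analysis was possible because each group has 1 library. The step that makes and calls ratios was checked on simulated counts, and thinning on a part of the cells. Clustering, naming and the other steps were not simulated.

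The members and gene lists were chosen with earlier results of these data known. Genes were drawn by rule from all 10 members; for each member the 3 genes with the highest Pearson r of log2(class mean + 0.01) over named classes, among genes in both tables with a mean of at least 0.5 in a class; for each comparison up to 4 listed genes per sub-list with the largest ratios past 2-fold and a mean of at least 0.2; and per sub-list the 2 with the highest fibroblast mean. The text names the members, their alike genes and a part of the listed genes in both directions. Neighbours of members on the chromosome and other genes were named after their values were seen.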

Additional observations from a re-analysis of the deposited data

Results flagged for a closer look

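In 4 ratios the wild-type and the reporter library had opposite signs. Each is given as the reporter minus the wild-type log2 ratio, and none of the differences was tested, since each library is 1 pool of mice. For CTFs-like over CBFs-like cells the difference was 1.23 for Has2 (1.15 in the reporter and -0.08 in the wild-type library). For CBFs2-like over CBFs1-like cells it was 1.08 for Has2 (0.83 and -0.26), 0.36 for Ogn (0.06 and -0.30) and -0.76 for Prelp (-0.57 and 0.19). The Has2 ratio of 1.15 was the only one of these 8 values past 2-fold.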

How the results depend on the processing

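Over 7 comparisons 122 alternatives were run, and 13 changed the number of members past 2-fold by more than 1.5 times. No reporter cell was above 10% mitochondrial counts, so leaving such cells out repeated the main setting in the reporter comparisons and could change nothing there. Of 44 member ratios past 2-fold, 17 stayed past it under every alternative run for them. Alternatives that changed only the filter or the fold threshold left each ratio as it was, so they could not move it. For CTFs-like over CBFs-like cells, the difference of mean natural log values gave 3 members (6 in the main setting) in each library. It gave 1 (3) and 1 (4) in CBFs2-like over CBFs1-like cells, wild type before reporter. In smooth muscle-like and pericyte-like cells it gave 2 (7) and 5 (9). Genes past 2-fold fell too. In wild-type CTFs-like over CBFs-like cells 54 were upward and 60 downward of 10041 (543 and 779 in the main setting). In the reporter 16 and 16 of 7376 were (683 and 288). For CBFs2-like over CBFs1-like cells these were 25 and 28 of 10126 (669 and 385), and 20 and 17 of 6729 (471 and 410). By that measure, 69 and 55 of 10047 genes were past 2-fold in smooth muscle-like cells (619 and 1031). In pericyte-like cells 100 and 105 of 10299 were (1100 and 2130). A 3-fold threshold gave 3 for reporter CTFs-like over CBFs-like cells (253 genes upward and 153 downward of 7376). For reporter CBFs2-like over CBFs1-like cells it gave 2 (259 and 167 of 6729). A 1.5-fold threshold gave 6 for wild-type CBFs2-like over CBFs1-like cells (1603 and 770 of 10126 genes). In the reporter it gave 7 (791 and 1280 of 6729). Fewer or more genes pass by construction. For reporter CBFs2-like over CBFs1-like cells, thinning to 2000 counts gave 2 (411 and 283 of 5115 genes). There a pseudocount of 0.1 gave 2 (198 and 118 of 6729). The smaller CTFs-like cluster alone, added after the data were seen, gave 2 for reporter CTFs-like over CBFs-like cells. Of 8011 genes, 1558 were upward and 194 downward there. Has2 turned from 1.15 to -0.74 in that setting, the 1 ratio of the 44 that changed sign. The cause was not tested. No alternative moved the blood endothelial count by that much (6 to 9 members). Counts of molecules per cell limit Fmod in every class.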

Other observations

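A cluster of 20 wild-type cells with Kit, Ano1 and Etv1, left without a name, had Ogn at 6.85 and Dcn at 0.40. A fibroblast cluster of 130 cells of no named type (median 1721 genes) had Dcn at 69.2 and Has1 at 0.262. Lymphatic endothelial-like cells had the hyaluronan receptor genes Lyve1 and Stab1 at 22.8 and 3.98, and glia-like cells had Tnfaip6 at 3.00 beside Hapln1 at 0.872. The genes named here outside the 10 members were chosen after their values were seen.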
